A study of Mus musculus with 4 samples.

Results

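The genes described here are 10 genes of fibroblast growth factor (FGF) signalling: the ligands Fgf2, Fgf7 and Fgf10, the receptors Fgfr1, Fgfr2, Fgfr3 and Fgfrl1, and the feedback inhibitors Spry1, Spry2 and Spry4. They were chosen by name from the 22180 genes with an array row of their own, and all 10 had one. For Fgf10, which had 2 rows, the row with the higher mean was used. Gene expression was measured by Mouse Gene ST 2.1 array in primary vascular smooth muscle cells (VSMCs) of mouse thoracic aorta. The cells came from 2 pairs of mice that had eaten a Western diet for 3 months, and were cultured for 5 days in medium with serum after the adventitia had been removed. Both groups were homozygous for floxed Mmp14, which encodes MT1-MMP, a collagen-cleaving protease anchored in the plasma membrane, and for a disrupted Apoe gene, whose product clears lipoproteins from plasma. The 2 control arrays came from SM22α-Cre(-)Mmp14(fl/fl)Apoe(-/-) mice. The 2 knockout arrays came from SM22α-Cre(+)Mmp14(fl/fl)Apoe(-/-) mice, in which the smooth muscle promoter SM22α (Tagln) drives Cre. The age of the mice is not given in the sources used here, and the knockout is restricted to cells in which that promoter has been active. The question behind the comparison is which transcripts of Apoe-null VSMCs depend on MT1-MMP.

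FGFs are secreted growth factors that bind tyrosine kinase receptors together with heparan sulfate. The activated receptor passes its signal through adaptor proteins to RAS and the kinase ERK, which drives proliferation, migration and loss of the contractile state in cultured smooth muscle. ERK activity in turn raises transcription of inhibitors such as the Sprouty proteins, which dampen the same pathway, so that Sprouty transcripts are often read as a trace of recent signalling.

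Values are log2 expression after RMA, the authors' normalisation, and a difference is always knockout minus control on that log2 scale. Levels of different genes are not compared, since each probe set has its own response. A gene was tested if its mean over the 4 arrays reached 3.02, the median of all row means, which 12550 genes did, 9 of the 10 members among them (the other, Fgfr2, did not). With 2 arrays against 2 no exact two-sided permutation p can go below 0.333, so p-values are those of limma's moderated test across all tested genes, with Benjamini-Hochberg adjustment. They carry the spread among single arrays, in which mouse, culture and hybridisation all vary.

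The array medians lay between 3.01 and 3.05, and Pearson's r over all rows was 0.974 to 0.982 between arrays, rows not being independent replicates. Mmp14 read 8.71 and 9.05 on the control arrays against 8.27 and 8.19 on the knockout arrays, a difference of -0.65 (limma, adjusted p = 0.319), so the transcript was still measured in the knockouts. The probes cover the whole transcript and some can lie outside the floxed exons, which was not tested. Tagln, whose promoter drove Cre, differed by -0.01 (limma, adjusted p = 0.997), and Apoe, disrupted in both groups, by -0.36 (limma, adjusted p = 0.502). All 12 smooth muscle markers examined were above the filter level, with differences from -0.55 to 1.14 and a median of -0.01. Macrophage and endothelial transcripts were present in the cultures too and differed between the groups, as described with the results they accompany.

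There were 5 members that were lower in both knockout arrays than in both control arrays, namely Fgf2, Fgfr1, Fgfrl1, Spry2 and Spry4, with group means 0.41 to 0.81 log2 units apart. None was higher in that sense. limma called 0 of the 9 tested members at an adjusted p under 0.05, as it called 0 of all 12550 genes (0%), and the smallest adjusted p of a member was 0.280, for Spry4. At an unadjusted p under 0.05 there were 3 members, Spry4, Fgfrl1 and Fgfr1, all lower, where 6.78% of all tested genes were lower at that level and 4.89% higher. Groups that did not overlap, with the knockouts lower, were seen in 5 of the 9 tested members and in 27.5% of all tested genes. With the knockouts higher they were seen in 0 of the 9 and in 16.7% of all tested genes. Differences were below 0 for 7 of the 9 and for 58.3% of all tested genes. The members were chosen with earlier results of these data known, so these shares are a description and not a test. The median difference of the 9 tested members was -0.41 (-0.26 without knockout array 2), and that of all tested genes was -0.05. In these bulk cultures fewer cells of a type and less RNA per cell cannot be told apart.

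**Figure D1:**
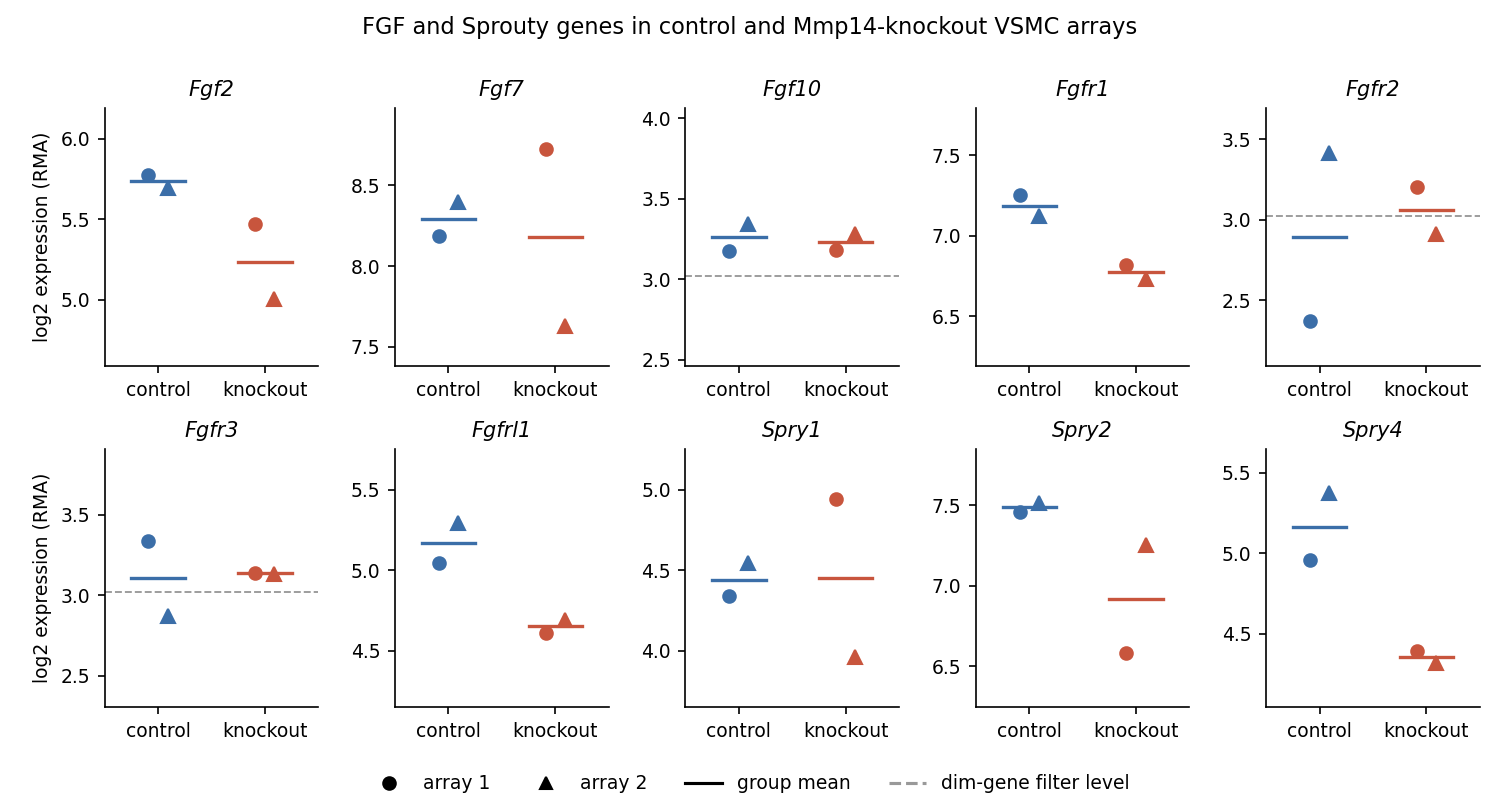
Log2 expression of each of the 10 genes in the 2 control (blue) and 2 knockout (red) arrays, with circles for array 1, triangles for array 2 and bars for group means; every panel spans the same number of log2 units, and the dashed line marks the filter level of 3.02 where it falls in the panel. Fgf2, Fgfr1, Fgfrl1, Spry2 and Spry4 have both knockout points below both control points, while Fgf7 and Spry1 have knockout points on either side of the controls.

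Among the ligands, Fgf2, basic FGF, a mitogen that smooth muscle cells both make and respond to, read 5.78 and 5.70 on the control arrays against 5.47 and 5.003 on the knockout arrays. Both knockout values lay below both controls, with knockout array 2 the lowest. The means were 5.74 ± 0.06 and 5.24 ± 0.33 (SD, n = 2 each), which gives a difference of -0.50 (SE 0.20, 95% interval -1.03 to 0.03; limma, adjusted p = 0.455), or 70.8% of the control level. Without knockout array 2 the difference was -0.26, and without knockout array 1 it was -0.73. The RefSeq gene table (GRCm38.p6) places 2 other genes over part of the Fgf2 span, the long non-coding RNA Fgf2os over 1365 bases and the protein-coding gene Nudt6 over 5125 bases. Fgf2os read 4.71 and 3.91 on the control arrays against 3.04 and 3.67 on the knockout arrays, a difference of -0.95 (limma, adjusted p = 0.419). Nudt6, a Nudix hydrolase family gene, read 4.54 and 4.32 against 4.28 and 3.91, a difference of -0.33 (limma, adjusted p = 0.566). All 3 rows of this locus were thus lower in both knockout arrays, and whether probes of one gene also read another's transcript was not tested.

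Fgf7, keratinocyte growth factor, which mesenchymal cells secrete towards epithelium, read 8.19 and 8.40 on the control arrays against 8.73 and 7.63 on the knockout arrays. Knockout array 1 was the highest of the 4 and knockout array 2 the lowest, so the groups overlapped and the difference of -0.11 had a wide interval (-1.12 to 0.90; limma, adjusted p = 0.938). The gap between the 2 knockout arrays, 1.10, was larger than in 97.4% of tested genes, while the gap between the 2 controls, 0.21, was larger than in 54.5%. The sign of the difference depended on the array: it was 0.44 without knockout array 2 and -0.66 without knockout array 1.

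Fgf10, a close relative of Fgf7 that signals through the same receptor form, read 3.18 and 3.34 on the control arrays against 3.18 and 3.28 on the knockout arrays. All 4 values lay little above the filter level, and the groups overlapped, with a difference of -0.03 (95% interval -0.41 to 0.35; limma, adjusted p = 0.958). Its second row, dimmer and below the filter level in every array, read 3.00 and 2.96 against 2.84 and 2.78, a difference of -0.17 without overlap between the groups. Near that level the size of a difference carries little information, since no background level was measured.

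Among the receptors, Fgfr1, a receptor tyrosine kinase through which Fgf2 acts on smooth muscle, read 7.25 and 7.12 on the control arrays against 6.82 and 6.73 on the knockout arrays. The arrays of each group lay close together and the groups 0.30 log2 units apart at their nearest values. The means were 7.19 ± 0.09 and 6.77 ± 0.06 (SD, n = 2 each), which gives a difference of -0.41 (SE 0.14, 95% interval -0.78 to -0.04; limma, adjusted p = 0.385), or 75.1% of the control level. The interval for a single gene stopped short of 0, but the gene did not pass the adjustment over all genes. The non-coding genes Gm31288 and Gm16159 overlap the Fgfr1 span in the RefSeq table, and a protein-coding gene, Fam227b, overlaps that of Fgf7; none of these had a row of its own here.

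Fgfrl1, a receptor-like protein that binds FGFs but lacks the intracellular kinase domain, read 5.04 and 5.29 on the control arrays against 4.61 and 4.69 on the knockout arrays. Both knockout arrays were lower, and were 0.08 apart. The means were 5.17 ± 0.17 and 4.65 ± 0.06 (SD, n = 2 each), which gives a difference of -0.52 (SE 0.16, 95% interval -0.92 to -0.11; limma, adjusted p = 0.356), or 69.9% of the control level.

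The other receptors were near the filter level. Fgfr2, the receptor of Fgf7 and Fgf10, read 2.37 and 3.41 on the control arrays against 3.20 and 2.91 on the knockout arrays, with a mean below the filter, and was not tested. The 2 controls were its lowest and highest arrays. Fgfr3, known for its role in growing cartilage, read 3.34 and 2.87 against 3.14 and 3.13, with a difference of 0.03 (95% interval -0.49 to 0.56; limma, adjusted p = 0.969). Its knockout arrays lay between the controls, and its sign turned, to -0.20, without control array 2. For Fgf10, Fgfr2 and Fgfr3 these arrays thus gave values at which a difference would be hard to see.

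Of the Sprouty genes, Spry4 had the largest difference of the 9 tested members. It read 4.96 and 5.37 on the control arrays against 4.40 and 4.32 on the knockout arrays, with 0.56 log2 units between the nearest values of the groups. The means were 5.16 ± 0.29 and 4.36 ± 0.05 (SD, n = 2 each), which gives a difference of -0.81 (SE 0.19, 95% interval -1.30 to -0.31; limma, adjusted p = 0.280), or 57.2% of the control level. Its unadjusted p of 0.0091 ranked 408 among the 12550 tested genes, and 2.26% of them had a more negative difference. Without single arrays the difference ran from -1.01 to -0.60.

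Spry2, which inhibits RAS and ERK signalling and also binds the ubiquitin ligase Cbl, read 7.46 and 7.51 on the control arrays against 6.58 and 7.25 on the knockout arrays. The controls were 0.05 apart, and most of the difference came from knockout array 1. The means were 7.49 ± 0.04 and 6.92 ± 0.47 (SD, n = 2 each), which gives a difference of -0.57 (SE 0.25, 95% interval -1.24 to 0.10; limma, adjusted p = 0.481), or 67.3% of the control level. Without knockout array 1 the difference was -0.24, and without knockout array 2 it was -0.91.

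Spry1, a Sprouty with the same conserved cysteine-rich region, read 4.34 and 4.54 on the control arrays against 4.94 and 3.96 on the knockout arrays. As for Fgf7, knockout array 1 was the highest and knockout array 2 the lowest, and the knockout gap of 0.98 was larger than in 96.6% of tested genes. The difference was 0.01 (95% interval -0.91 to 0.93; limma, adjusted p = 0.997), from -0.48 without knockout array 1 to 0.50 without knockout array 2. The 3 Sproutys therefore set the knockout arrays in different orders: array 1 was above array 2 by 0.98 for Spry1, below it by 0.67 for Spry2, and above it by only 0.07 for Spry4. The intervals of all 3 differences overlapped, and whether they differ from one another was not tested.

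**Figure D2:**
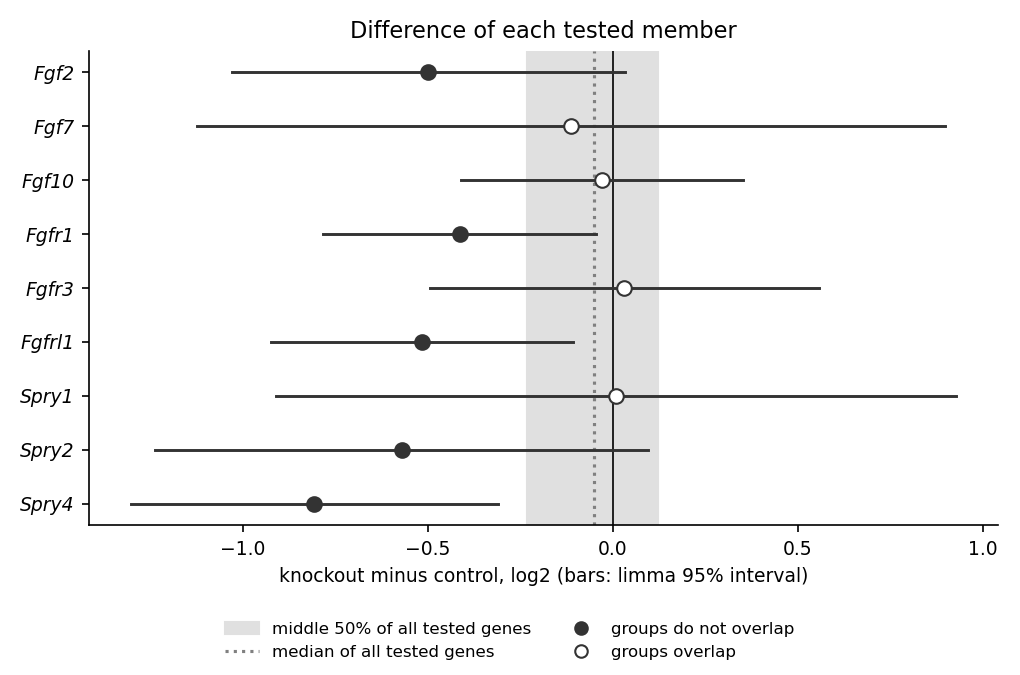
Knockout minus control difference (log2, horizontal axis) of the 9 tested members with the 95% interval from limma; filled points mark genes whose groups do not overlap, the grey band holds the middle 50% of all 12550 tested genes and the dotted line is their median, -0.05. The 5 filled points lie between -0.81 and -0.41, all left of the band, and the intervals of Fgf7 and Spry1 reach about a log2 unit to either side of 0.

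**Figure D3:**
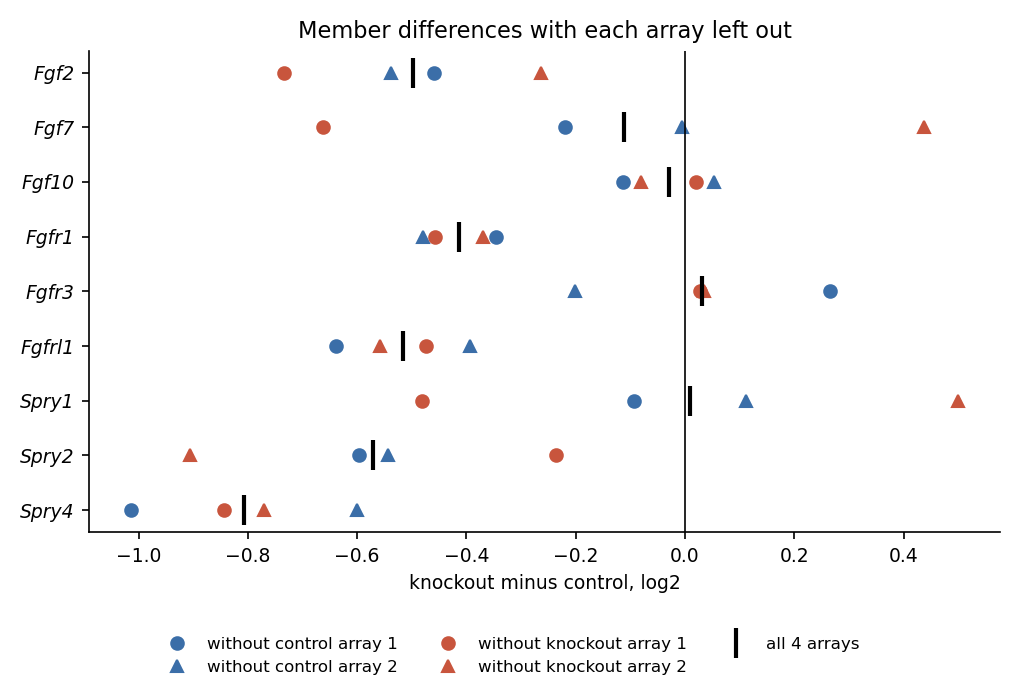
The same differences (log2, horizontal axis) refitted with each array left out in turn; the vertical tick gives the value over all 4 arrays, blue and red symbols the refits without a control or knockout array. Fgf2, Fgfr1, Fgfrl1, Spry2 and Spry4 stay below 0 in every refit, which follows from their groups not overlapping. Fgf7, Fgf10, Fgfr3 and Spry1 have refits on both sides of 0.

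To show the start regions of members that were lower together and of a relative that was not, the 250 bases upstream of the annotated start are printed for Fgfrl1, Spry2 and Spry1 (RefSeq, GRCm38.p6). Capitals mark, on either strand, GGGCGG (the GC box bound by Sp1), GGAATG (the core of TEAD sites), CCGGAAGT (an ETS consensus) and CACGTG (an E-box, which is its own reverse complement). The AP-1 motif TGANTCA was searched as well. The windows are chr5:108693979-108694228 (plus strand) for Fgfrl1, chr14:105896820-105897069 (minus strand) for Spry2 and chr3:37639697-37639946 (plus strand) for Spry1, each written 5′ to 3′ along the gene.
Fgfrl1: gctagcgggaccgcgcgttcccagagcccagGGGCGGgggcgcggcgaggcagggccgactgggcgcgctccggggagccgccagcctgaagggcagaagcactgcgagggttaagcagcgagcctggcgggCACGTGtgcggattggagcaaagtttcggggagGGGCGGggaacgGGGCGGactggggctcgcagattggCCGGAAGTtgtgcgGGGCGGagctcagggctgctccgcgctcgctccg
Spry2: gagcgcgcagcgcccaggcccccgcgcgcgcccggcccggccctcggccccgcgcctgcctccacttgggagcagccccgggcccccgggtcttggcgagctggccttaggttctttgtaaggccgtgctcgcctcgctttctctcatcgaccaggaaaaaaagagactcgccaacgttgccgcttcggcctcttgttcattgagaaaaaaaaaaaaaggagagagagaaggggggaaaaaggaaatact
Spry1: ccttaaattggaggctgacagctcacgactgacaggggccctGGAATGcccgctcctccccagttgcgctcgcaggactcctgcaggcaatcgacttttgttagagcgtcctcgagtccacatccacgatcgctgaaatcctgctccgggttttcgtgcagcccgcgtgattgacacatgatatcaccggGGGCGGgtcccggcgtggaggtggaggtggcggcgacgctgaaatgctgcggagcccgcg

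The Fgfrl1 window held 4 copies of GGGCGG, 1 of CCGGAAGT and 1 of CACGTG. The Spry1 window held 1 copy each of GGGCGG and GGAATG. The Spry2 window held none of the 5 motifs, which says only that these letters are not in this window. Over all 32851 windows of the same length in the table, 32.7% held GGGCGG, 12.6% GGAATG, 6.75% TGANTCA, 6.02% CACGTG and 2.88% CCGGAAGT. GC content was 73.6% in the Fgfrl1 window and 62.4% in both Sprouty windows, against a median of 52.4%, and the number of CpG dinucleotides was 30, 23 and 23, against a median of 6. The table held windows for 8 of the 10 members, all but Fgfr1 and Spry4, and none of them contained TGANTCA. Among the lower members with a window, Fgfrl1 and Fgf2 (1 copy) shared GGGCGG and Spry2 lacked it. The Fgf2 window overlaps the annotated body of that gene. Among members whose groups overlapped, Fgfr3 (up to 3 copies), Fgf10 (1) and Spry1 (1) held GGGCGG too, and Fgf7 and Fgfr2 lacked it. A match is a description of the letters and not a site.

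The rest of the pathway was read from 5 lists of genes grouped by role, 69 different genes in all, of which 62 had a row of their own and 42 were tested. Dusp6, Spred1 and Il17rd were listed both as feedback inhibitors and as targets. limma called 0 of the 42, with 1 lower and 1 higher at an unadjusted p under 0.05. Groups did not overlap for 13 that were lower and 6 that were higher, and the median difference was -0.07. For these genes the share of lower ones without overlap was close to the 27.5% seen over all tested genes.

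Of 19 other genes of the FGF family (plotted as other ligands, though not every one need act as a ligand), 14 were below the filter level. The other 5 were tested, with a median difference of 0.12. Fgf5, a ligand known as a regulator of the hair cycle, read 4.09 and 3.77 on the control arrays against 4.39 and 5.58 on the knockout arrays. Both knockout arrays were above both controls, with knockout array 2 the highest, a difference of 1.06 (SE 0.42, 95% interval -0.04 to 2.16; limma, adjusted p = 0.444). The difference was 0.46 without knockout array 2 and 1.65 without knockout array 1. Fgf5 was opposite in sign to Fgf2 and was the only tested gene of this list whose groups did not overlap.

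Of 13 other receptors, co-receptors and carriers of FGFs, 8 were tested, with a median difference of -0.06, and Fgfr4, Kl and Klb were among those below the filter level. Sdc1, a syndecan whose heparan sulfate chains can hold FGFs at the cell surface, read 6.99 and 7.45 on the control arrays against 7.94 and 7.93 on the knockout arrays. Both knockout arrays were higher, a difference of 0.72 (SE 0.20, 95% interval 0.20 to 1.24; limma, adjusted p = 0.335).

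Of 18 genes that relay the signal inside the cell, 12 had a row of their own and all 12 were tested, with differences from -0.36 to 0.31 and a median of -0.13. Groups did not overlap for 5 lower genes and 1 higher gene. Those with the largest differences were Shc1, an adaptor of receptor tyrosine kinases, at -0.36 (SE 0.15), Ptpn11, the phosphatase SHP2 that is needed for full activation of RAS, at -0.32 (SE 0.18), and Frs3, a docking protein of FGF receptors, at -0.29 (SE 0.14). Their adjusted p-values (limma) were 0.460 to 0.543. Without control array 1 the Ptpn11 difference was -0.14. The knockout mean of Frs3, 2.99, lay below the filter level.

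Of 10 other feedback inhibitors, 9 were tested, with a median difference of -0.11; groups did not overlap for 4 lower genes and 1 higher gene. Dusp5, a phosphatase of nuclear ERK, read 4.97 and 5.21 on the control arrays against 4.05 and 4.78 on the knockout arrays, a difference of -0.67 (SE 0.28; limma, adjusted p = 0.467). Without knockout array 1 that difference was -0.31, and without knockout array 2 it was -1.04. Spred3, a Sprouty-related protein, differed by -0.49 (SE 0.28) and Rasa1, a RAS GTPase-activating protein, by -0.44 (SE 0.18), with adjusted p-values of 0.549 and 0.454 (limma). Spred3 depended on control array 1: it read 4.85 and 4.12 on the control arrays against 4.06 and 3.92 on the knockout arrays. Without control array 1 its difference was -0.13. That of Rasa1 was -0.28 without control array 1 and -0.35 without knockout array 1. Dusp6, a phosphatase of cytoplasmic ERK that is widely used as a readout of FGF signalling, went the other way from Spry4, with values of 7.89 and 8.06 against 7.92 and 8.43, overlapping groups and a difference of 0.20 (SE 0.22; limma, adjusted p = 0.767). Dusp6 falls outside the rule for named genes and was chosen after its values were seen.

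Of 12 transcriptional targets of FGF and ERK signalling, 10 were tested, with a median difference of -0.05; groups did not overlap for 4 lower and 2 higher genes. Egr1, an immediate early transcription factor, read 7.23 and 7.23 on the control arrays against 6.29 and 6.57 on the knockout arrays. Both knockouts were lower, a difference of -0.79 (SE 0.16, 95% interval -1.21 to -0.38; limma, adjusted p = 0.248), close in size to that of Spry4. Myc, a transcription factor of growth, differed by -0.46 (SE 0.23) and Phlda1, a pleckstrin homology-like protein, by -0.32 (SE 0.14), with adjusted p-values of 0.515 and 0.485 (limma). The Myc difference was -0.18 without control array 1 and -0.74 without control array 2. The ETS factors Etv1, Etv4 and Etv5, also chosen after their values were seen, are induced by FGFs in development, and differed by 0.29, -0.06 and 0.13 (limma, adjusted p = 0.517, 0.944 and 0.775). The targets thus stood on both sides of 0, with Egr1 the lowest and Etv1 the highest.

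**Figure D4:**
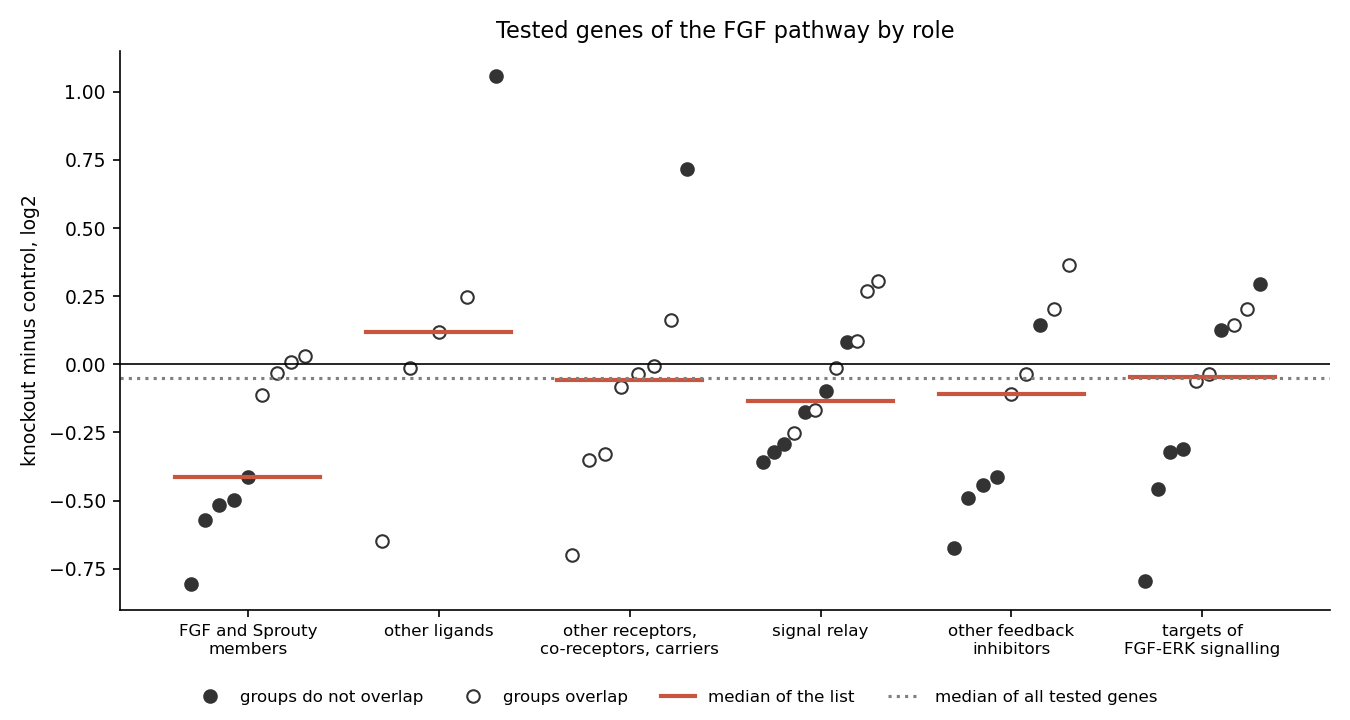
Knockout minus control difference (log2, vertical axis) of every tested gene of the pathway, one point a gene within each of 6 lists by role. Dusp6 and Spred1 appear both among the other feedback inhibitors and among the targets. Filled points mark genes whose groups do not overlap, red bars the median of a list and the dotted line the median of all tested genes. The members' median is -0.41, and those of the other lists lie between -0.13 and 0.12; Fgf5 (1.06) and Sdc1 (0.72) stand at the top of their lists.

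The tested genes whose values followed Spry4 most closely, by the distance between profiles centred on their own mean over the 4 arrays, were Pard3, a polarity protein (distance 0.08 log2 units), Igsf23 (0.09), Cap2, an actin-regulating protein (0.10), Pgrmc1, a haem-binding membrane protein (0.11), and Arhgap27 (0.11). Their differences were -0.78, -0.77, -0.73, -0.78 and -0.69. That they lie close to the -0.81 of Spry4 follows from the way they were chosen. These profiles rest on only 4 arrays.

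Markers of other cells moved between the same groups as the members. All 17 tested macrophage markers of 18 were higher in the knockouts, 16 of them without overlap between the groups, with a median difference of 1.16, and only Cd163 was below the filter level. Summed on the linear scale, the macrophage markers came to 6867 to 7245 in the controls and 11206 to 13200 in the knockouts. Here and for the lists below, such a sum is carried mostly by the brightest rows and says little about the dimmer markers. Of 13 tested endothelial markers of 15, 10 were lower, 9 without overlap, with a median difference of -0.67, and the 2 below the filter level were Tek and Cldn5. The other 3 tested were higher: Kdr by 0.32, without overlap, and Vwf and Flt1 by 0.29 and 0.10, with overlap. The lower ones had the largest differences: -2.88 for Ptprb, -2.51 for Cdh5, -2.49 for Pecam1 and -2.48 for Emcn. Their adjusted p-values (limma) were 0.104, 0.301, 0.121 and 0.210. The summed level of the endothelial markers was 960 to 1712 in the controls and 451 to 463 in the knockouts.

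Of the remaining marker lists, those of fibroblasts, smooth muscle and adipocytes had groups that overlapped in summed level. The fibroblast and adventitial markers had 8 tested of 12, 3 lower and 5 higher, a median difference of 0.12 and sums of 1671 to 1699 in the controls against 1443 to 1933 in the knockouts, with Pi16, Scara5 and Clec3b below the filter level. Within this list Cd34, a sialomucin that endothelial cells carry too, and Dpt, a matrix protein, were lower without overlap, by differences of -2.40 and -1.51 (limma, adjusted p = 0.262 and 0.356). The 12 smooth muscle markers, 7 lower and 5 higher, summed to 4438 to 5964 against 4381 to 6556. Groups did not overlap for 3 lower markers and 1 higher marker. The lowest difference was that of Smtn, -0.55, and the highest that of Actg2, 1.14 (limma, adjusted p = 0.335 and 0.364). The adipocyte markers, 4 tested of 7 and all 4 higher, had sums of 610 to 1101 against 1008 to 1395, with the defining markers Adipoq and Lep below the filter level. Of 7 lymphocyte markers only Nkg7 was above it, with a difference of 0.35, and the sums of the list, 41.3 to 42.0 against 45.4 to 53.8, did not overlap. The part of these cell types in the differences of the FGF and Sprouty genes was not tested.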

How the data were processed

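The deposited table holds log2 expression values of 41345 rows on 4 arrays, which the authors made with RMA according to the submitters' processing notes (deposited range 1.17 to 12.4, from which base 2 was inferred). RNA input was 10 ng for whole-transcriptome amplification, per the labels' protocols. The sources used here give no software version, chip definition or build. The platform annotation gave 1 symbol to 23521 rows, several to 1814 and none to 16010. Of those with 1 symbol, 23328 matched RefSeq (GRCm38.p6) by gene number and 0 symbols changed. For genes with several rows the row with the highest mean was kept.

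Genes at or above the median row mean entered a limma 3.58.1 fit under R 4.3.3 (lmFit, eBayes) of knockout against control with no covariate, with calls at an adjusted p under 0.05. The fit was tested on simulated data, with changes larger than any member difference, so that test does not bear on differences of the members' size. All members, Mmp14, Tagln and Apoe are named, with up to 3 genes per pathway list (largest difference without overlap) and the 5 genes most like the member of largest difference, leaving out predicted genes and olfactory or vomeronasal receptors. Other genes named for being below the filter level, overlapping a member or standing out in a marker list were added after their values were seen. The members and lists were chosen with earlier results of these data known. Depth does not apply to arrays, whose number limits the precision. Alternatives were a replicate block, other filters and normalisations, the mean of a gene's rows, eBayes with trend and robust estimation, array weights and leaving out arrays. Plots were drawn with matplotlib 3.10.9.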

Additional observations from a re-analysis of the deposited data

How the results depend on the processing

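limma called 0 genes and 0 members with all 4 arrays and in each of the 12 refits. Over 104 refits of the 9 tested members the sign turned in 7: Spry1 read -0.022 with arrays centred on their median, and 6 came from leaving out an array. Leaving out arrays gave -0.66 to 0.44 for Fgf7, -0.11 to 0.053 for Fgf10, -0.20 to 0.26 for Fgfr3 and -0.48 to 0.50 for Spry1. Fgf2, Fgfr1, Fgfrl1, Spry2 and Spry4 stayed lower in every refit that tested them. The 11 named pathway genes kept their sign in all 128 of theirs. For both sets this was fixed in advance where an array was left out, since their groups do not overlap. A replicate block, other filters, array weights or other eBayes settings leave the difference itself unchanged. Sizes did move without single arrays: Fgf5 went down to 0.46. Dusp5, Rasa1, Myc, Ptpn11 and Spred3 came to -0.31, -0.28, -0.18, -0.14 and -0.13 at their smallest. The median over tested members was -0.41 with all arrays, -0.26 with no filter on dim genes (which adds Fgfr2) and -0.47 to -0.26 without single arrays, the smallest being without knockout array 2. Of all 10 members, untested Fgfr2 included, 5 to 7 were lower without overlap and 0 to 2 higher when single arrays were left out. Fewer arrays leave fewer values to overlap: Fgfr2 counted as lower without control array 1 and as higher without control array 2. The share over all tested genes was not counted for these settings, so the counts say nothing particular to the members. With the title number as a replicate block, limma called 0 genes and the median stayed at -0.41. Nothing in the labels says that a number marks a pair, and the deviations of same-numbered arrays correlated at r = 0.05 over tested genes, so the block was not used. The centring moved the median of all tested genes from -0.05 to -0.08. Values near the filter level of 3.02 (Fgf10, Fgfr2, Fgfr3) limit what can be seen for those genes.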
